A study of Homo sapiens with 24 samples.

Results

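Long intergenic noncoding RNAs carry the symbol LINC and a number when they were catalogued between other genes and have no functional name. The features described here were chosen by their measured counts: a LINC name had to reach at least 20 raw counts in at least 6 of the 12 libraries of one day. Of 2232 LINC names among 61248 counted features, 104 met this rule, 29 of them on both days, 66 at day 14 only and 9 at day 0 only. Just inside the rule stood LINC00092 and LINC00665, whose sixth highest day 14 count was 20, and just outside stood LINC01089 and LINC03025, with 19.

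The cells were H7, an established human embryonic stem cell line, as 2 control lines and 2 lines with the gene BRAT1 knocked out, each in 3 biological replicates (A to C) at each of 2 stages. Day 0 libraries came from undifferentiated stem cells, and day 14 libraries from the same 4 lines after 14 days of ventral neural differentiation, which the labels call neural progenitors. The labels name no other agent, and how the lines were derived, and whether each is 1 clone, is not given in the sources used here. Poly(A) RNA was sequenced by Click-Seq, in which chain-terminated cDNA is joined to its adapter by click chemistry, and 24 libraries were analysed.

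BRAT1 binds the INTS9 and INTS11 subunits of Integrator, the nuclear complex whose nuclease cleaves nascent RNA at small nuclear RNA genes, enhancers and many noncoding genes. LINC transcripts are often restricted to a cell type, and many lie beside developmental transcription factor genes and change with them during neural differentiation. Some are hosts of microRNAs, such as LINC00461, which carries one of the miR-9 copies expressed in neural progenitors. The comparisons below ask how the levels of these features changed with differentiation and how they differed without BRAT1.

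What a count under a LINC name stands for has to be read with care in these files. Among 1733 pairs of a noncoding feature and an overlapping coding gene on the other strand with at least 100 counts, 1169 (67.5%) had more counts under the noncoding name. TALAM1, the antisense partner of the abundant nuclear RNA MALAT1, held 6.91% of all counts and MALAT1 0.00444%. The strand setting of the counting is not given in the sources used here, so each value below may stand for RNA from the strand opposite to the named feature. By annotation, 11 of the 104 members lay opposite an exon of a coding gene, and for 9 of these the LINC name held more counts than the coding gene. Only the LINC name had to reach the rule's count, so the 9 follow in part from the choice. Another 37 lay opposite an exon of another gene, 19 opposite a RefSeq gene body, 2 inside a coding gene on the other strand, and 35 had no annotated gene opposite.

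Total counts ran from 2228736 to 3726227 per library at day 14 and from 1407832 to 2143871 at day 0, so the same raw count stood for a higher level at day 0. Levels are given as CPM, the counts of a feature scaled to a common library total. BRAT1 itself was at 251.6 ± 45.9 CPM in day 14 controls and 46.2 ± 38.0 in day 14 knockouts (SD, n = 6 each), a log2 difference of -2.47 ± 0.57 (SE, adjusted p = 0.0111), and at 0.657 and 1.69 CPM at day 0, where it cannot check the labels. The pluripotency markers under their own names (9 genes) summed to 108 to 228 CPM in day 0 controls and 56.1 to 117 at day 14. The features opposite 2 of these genes had medians of 601 and 0. The list was not uniform in controls. POU5F1, L1TD1, TDGF1 and DNMT3B passed the test as lower at day 14. LIN28A rose from 11.2 to 61.8 CPM (log2 1.94, adjusted p = 0.0022), and SOX2 and DPPA4 did not fall. NANOG and ZFP42 were too low to enter the test. SOX2 is also in the neural progenitor list. Neural progenitor markers (8 genes) summed to a median of 42.4 CPM in day 0 controls, 235 in day 14 controls and 544 in day 14 knockouts, while the 2 features opposite members of that list went the other way, with medians of 179.5 in day 14 controls and 84.6 in knockouts. Ventral markers (8 genes) had medians of 23.2 in day 14 controls and 145 in day 14 knockouts, neural crest markers (4 genes) 122 and 38.4, and neuron markers (5 genes) 33.0 and 89.2. The neural progenitor, ventral, neural crest and neuron sums moved with genotype at day 14. The pluripotency sum had day 14 medians of 88.6 CPM in controls and 79.3 in knockouts, with overlapping ranges. Mesenchyme markers (5 genes) had medians of 15.8 and 15.7, while the 1 feature opposite that list had 154 and 37.4. The part of these lists in the differences below was not tested.

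Members were counted as changed at an adjusted p under 0.05 in edgeR's quasi-likelihood F test, with Benjamini-Hochberg adjustment over every feature of the fit. The labels call A to C biological replicates without saying what was separate, and the 6 libraries of a genotype come from 2 lines, so the p-values measure the spread between these libraries. In bulk RNA, fewer cells of a type and less RNA per cell cannot be told apart.

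The 104 members together held 0.342% ± 0.0197 of all counts in day 14 controls and 0.388% ± 0.0332 in day 14 knockouts (SD, n = 6 each), a description of members chosen on these counts. Knockout line 1 held 0.351%, 0.380% and 0.349%, within or close to the control range of 0.314% to 0.372%, and line 2 held 0.422%, 0.402% and 0.423%. At day 0 they held 0.415% ± 0.0313 and 0.428% ± 0.0588. A few members took most of these counts. At day 14, LINC02076 alone held 12.5% of the members' counts, and with LINC00867, LINC00847, LINC00987, LINC00649 and LINC01772 it made up 37.4%. At day 0, LINC00987 and LINC00867 held 13.6% and 13.2%, and with LINC02076, LINC01194, LINC02067 and LINC01504 they reached 53.4%.

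Per kilobase of annotated exon, the median level over the 103 members with GENCODE coordinates was 6.98 CPM per kb at day 14 and 1.70 at day 0. LINC02076 led at day 14 with 245 CPM per kb, ahead of LINC00867 (235) and LINC02951 (218). At day 0 the order was LINC00867 (585), LINC02951 (278), LINC00987 (211) and LINC02076 (209). The members had a median exonic length of 2562 bp and a median of 5 exons, and 63 of them had the start of a coding gene within 100 kb, 39 within 50 kb and 5 within 5 kb.

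Differentiation separated the members widely. From day 0 to day 14 in control lines, 37 of the 104 rose and 25 fell, which is 59.6% of them, where 42.8% of all 10971 features tested passed the test (28.4% higher and 14.4% lower). In knockout lines 39 rose and 22 fell (58.7%), against 46.3% of all features, 29.8% higher and 16.5% lower. The median log2 change was 1.18 over members and 0.60 over all features in controls, and 0.87 and 0.65 in knockouts. These counts follow in part from the rule: of the 66 members admitted by day 14 counts only, 33 rose and 1 fell in controls, and all 9 admitted by day 0 counts only fell. Among the 29 that met the rule on both days, 4 rose and 15 fell in controls, and 2 rose and 12 fell in knockouts. Another scaling of the libraries (RLE size factors) moved the named members' day differences by a median of 0.09 in controls and 0.345 in knockouts, and gave 43 higher and 22 lower in controls, and 43 and 20 in knockouts.

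**Figure D1:**
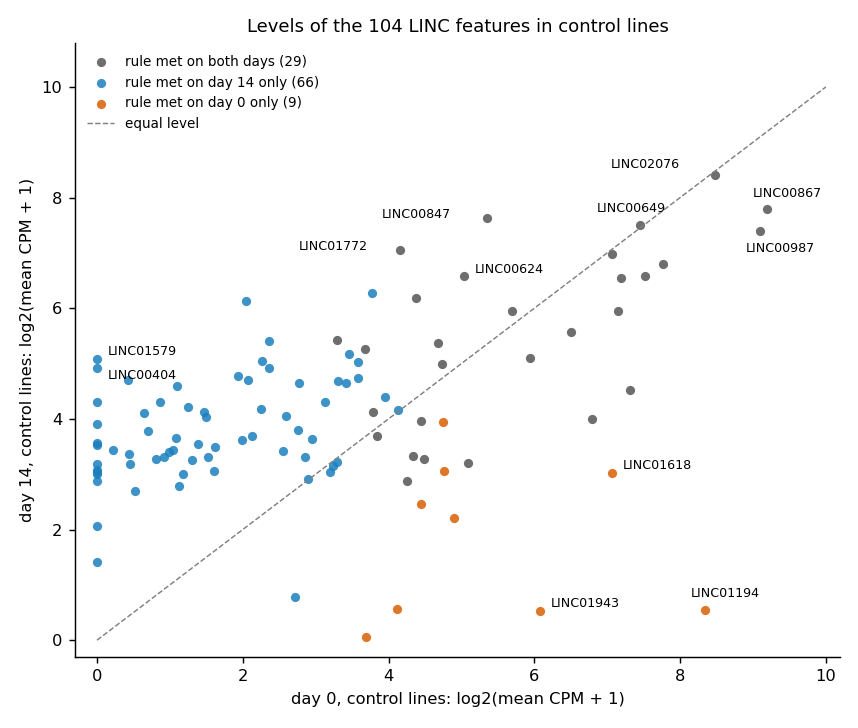
Mean level of each of the 104 members in control lines at day 0 (x axis) and day 14 (y axis), as log2(CPM + 1) over 6 libraries each, coloured by the day or days on which the rule was met, with a dashed line of equal level. Members admitted by day 14 counts lie mostly above the line, LINC01194, LINC01943 and LINC01618 lie far below it, and LINC02076 lies close to it.

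LINC01194 had the largest fitted fall between the days in control lines. In day 0 controls it ran from 175 to 512 CPM with a median of 309, and in day 0 knockouts from 154 to 328 with a median of 243. At day 14 its highest library reached 1.26 CPM in controls and 7.70 in knockouts, so the days did not overlap in either genotype. The log2 change was -9.84 ± 0.79 (SE) in controls and -7.02 ± 0.67 in knockouts, with adjusted p = 1.375e-10 and 2.518e-09. No gene is annotated opposite it on chromosome 5.

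LINC01618, on chromosome 4, fell from 132 ± 69.3 to 7.13 ± 2.80 CPM in controls, a log2 change of -4.72 (adjusted p = 7.004e-07). It was spread widely at day 0, from 42.9 to 225 CPM, yet its lowest day 0 control lay above the highest day 14 control, at 12.0. LINC01943, whose exons overlap those of CYTOR (a noncoding RNA on the other strand) by 405 bp, went from 66.8 ± 25.6 CPM to 0.443 ± 0.734. The feature CYTOR itself was at 0.0809 CPM in day 0 controls and 0.173 in day 14 controls. LINC00951 went from 16.3 ± 10.4 to 0.479 ± 0.900 CPM. LINC01487, which lies 52830 bp from the start of STRIT1 (a small membrane peptide gene), held 125 counts over the day 0 control libraries and 1 over the day 14 ones, a ratio of 236 with a 95% counting interval of 41.5 to 9374. These 4 members and LINC01194 met the rule at day 0 only, so their fall is a description.

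Several of the most abundant members, which met the rule on both days, also fell. LINC00987 went from 546 ± 180 to 168 ± 47.0 CPM in controls, with every day 0 control (331 CPM or more) above every day 14 control (234 or less). Its log2 change was -2.23 ± 0.25 (adjusted p = 1.297e-08), and -2.06 ± 0.24 in knockouts. LINC00867 fell by 1.93 on the log2 scale in controls and by 1.75 in knockouts (adjusted p = 6.719e-07 and 2.36e-06). LINC01504 went from 217 ± 54.6 to 110 ± 14.2 CPM, and LINC02067 from 182 ± 75.7 to 95.1 ± 38.0. Both fell in both genotypes, while LINC02076 was at 356 CPM in day 0 controls and 338 in day 14 controls and did not pass the test (log2 change -0.61, adjusted p = 0.107). Fitted log2 changes rest on TMM scaling of the libraries (given below) and not on library totals. They can therefore differ from the ratio of the CPM levels, and which members count as fallen depends on that scaling. LINC01013 and LINC01018, at 158 and 140 CPM in day 0 controls, fell to 22.1 and 60.5 (log2 changes of -3.39 and -1.76).

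In control lines, features that appeared at day 14 were led by LINC01579 and LINC00404. In knockout lines LINC02487, at least 600.4-fold above day 0, and LINC01289, at least 266-fold, exceeded LINC01579. LINC01579 had no count in any of the 12 day 0 libraries, and ran from 25.3 to 42.3 CPM in day 14 controls and from 21.2 to 40.9 in day 14 knockouts. Against a floor of 3 counts over the group, that is at least 112-fold higher in controls and at least 108-fold in knockouts. LINC00404 was at 29.1 ± 4.67 CPM in day 14 controls and 33.2 ± 8.56 in knockouts, at least 97.7-fold above day 0 in controls. It lies on chromosome 13 opposite SOX1-OT, 39235 bp from the start of SOX1, which encodes an early neural transcription factor. The feature SOX1 was at 0 CPM in day 0 controls, 3.73 in day 14 controls and 13.6 in day 14 knockouts, and differed by genotype (log2 1.83, adjusted p = 0.0029), where LINC00404 did not pass the test (log2 0.18 ± 0.22, adjusted p = 0.601).

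LINC01378, LINC01300 and LINC02538 had no count in day 0 controls and were at least 62.3-fold, 47.8-fold and 36.8-fold higher in day 14 controls. These 3, LINC01579, LINC00404, LINC02487 and LINC01289 met the rule at day 14 only, so their rise is a description.

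Another member beside a transcription factor gene was LINC02157. It lies 90153 bp from NR2F2, the COUP-TFII gene, and opposite NR2F2-AS1. It went from no count at day 0 in either genotype to 8.07 ± 3.29 CPM in controls and 11.5 ± 7.92 in knockouts, and NR2F2 from 0 to 30.6 and 74.4. NR2F2 differed by genotype at day 14 (log2 1.24, adjusted p = 0.0057), where LINC02157 did not pass the test (log2 0.49 ± 0.42, adjusted p = 0.439). LINC00632 lies on chromosome X, where a circular RNA that binds miR-7 is made from the strand opposite CDR1. It had no count in day 0 controls and 6.34 ± 1.64 CPM at day 14, at least 21.2-fold higher. CDR1, the feature opposite it, was at 108 CPM in day 0 controls and 378 at day 14. LINC00632 was at 11.4 ± 2.34 CPM in day 14 knockouts, and its genotype difference did not pass the test (log2 0.81 ± 0.35, adjusted p = 0.0928). Both LINC02157 and LINC00632 met the rule at day 14 only, so their rise is a description.

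LINC00847 and LINC01772 were present at both days and rose. LINC00847, which overlaps the noncoding feature HEIH on the other strand by 514 bp, ran from 9.72 to 77.4 CPM with a median of 32.8 in day 0 controls, and from 170 to 222 with a median of 195 at day 14. Its log2 change was 1.81 ± 0.33 in controls and 0.94 ± 0.32 in knockouts (adjusted p = 6.188e-05 and 0.0171). LINC01772 went from 16.8 ± 13.5 to 132 ± 11.9 CPM in controls, and the 2 days did not overlap.

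LINC02603, on chromosome 9, holds the let-7d hairpin on its other strand and overlaps the let-7 host gene MIRLET7A1HG by 1130 bp. It went from 4.12 CPM in day 0 controls to 41.3 ± 6.48 at day 14 (log2 2.68, adjusted p = 0.0048). In knockouts it went from 9.81 CPM at day 0 to 34.2 ± 12.5 at day 14, and the change did not pass the test (log2 1.23, adjusted p = 0.158). LINC02603 met the rule at day 14 only, so its rise is a description. It was not among the members past the genotype by day interaction test given below. MIRLET7A1HG was at 0 and 0.0491 CPM in controls. Both mature let-7d strands are printed with the miR-9 strands because these are the 2 loci among the members that hold a microRNA the text names. Capitals mark the seed, bases 2 to 8. The sequences are from RefSeq (GRCh38.p14), and mature microRNAs were not measured.
hsa-let-7d-5p: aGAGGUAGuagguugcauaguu
hsa-let-7d-3p: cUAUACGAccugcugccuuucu
hsa-miR-9-5p: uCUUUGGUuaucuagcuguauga
hsa-miR-9-3p: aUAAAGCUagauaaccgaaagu
None of these 4 seeds is shared.

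Loss of BRAT1 went with differences in both directions at day 14. Of 99 members tested, 16 were higher in knockouts and 17 lower, which is 33.3% of them, where 21.7% of all 11408 features passed the test, 11% higher and 10.7% lower. The median log2 difference was 0.00 over the members and 0.07 over all features. Part of this count is set by how members entered: of the 75 that reached 20 counts in at least 3 libraries of each genotype at day 14, 13 were higher and 7 lower, while of 15 that entered mainly through controls 9 were lower and of 5 that entered mainly through knockouts 3 were higher. Among the 4 tested that met the rule at day 0 only, 1 was lower. Under the same count rule, 31.5% of the 664 tested antisense features (names ending in -AS), 29.8% of the 104 divergent transcripts (-DT) and 22.2% of the 5242 coding genes were called. The count of members called was 8 (3 higher, 5 lower), with 241 of all features, when all 24 libraries entered 1 fit, and the cause was not tested.

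**Figure D2:**
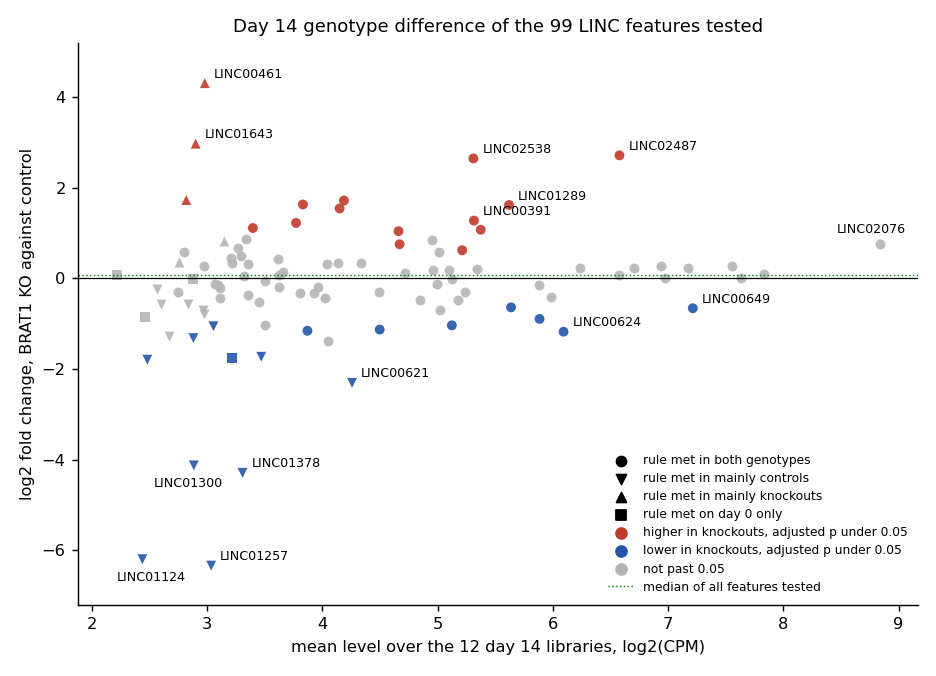
Difference between BRAT1 knockout and control lines at day 14 (y axis, log2 fold change) against the mean level over the 12 day 14 libraries (x axis, log2 CPM) for the 99 members tested, with the marker showing how each met the rule, red and blue those past an adjusted p of 0.05, and a dotted line at the median of all features (0.07). The largest falls (LINC01257, LINC01124, LINC01378, LINC01300) and the rises of LINC00461 and LINC01643 are members that entered through one genotype, while LINC02487 and LINC02538 entered through both.

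LINC02487 had a narrow spread in both genotypes. Its 6 day 14 controls ran from 15.8 to 33.7 CPM with a median of 25.5, and its 6 knockouts from 151 to 182 with a median of 168, with no overlap and a spread among knockouts (SD 12.1 CPM) far smaller than the gap. The log2 difference was 2.72 ± 0.18 (adjusted p = 1.152e-11), and it was past the threshold under all 23 alternatives tried. At day 0 it held 4 counts over the 6 controls and none over the 6 knockouts.

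LINC02538 lies next to it on chromosome 6, 3′ of LINC02487 on the same strand, and was also higher. Its controls ran from 5.16 to 14.1 CPM (median 11.5) and its knockouts from 51.1 to 77.0 (median 72.0), again without overlap. The log2 difference was 2.65 ± 0.23 (adjusted p = 1.355e-09), also past the threshold under all 23 alternatives. LINC02487 spans chr6:167679626-167696290 with 6 exons and LINC02538 spans chr6:167666840-167679270 with 3 (GENCODE 29 on GRCh38, minus strand). RefSeq places an uncharacterised gene, LOC124901465, on the other strand of both, so the 2 LINC names may not be independent measurements.

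The promoters of these neighbours are printed because both features moved together. Each runs from 250 bases before to 50 after the RefSeq start (GRCh38.p14, minus strand), with capitals for matches on either strand to 5 motifs: TATAAA (the TATA box), GGGCGG (the GC box), TAATTA (a homeodomain core), ACAAAG (a SOX-type motif) and ATGCAAAT (the octamer).
LINC02487, chr6:167696240-167696539: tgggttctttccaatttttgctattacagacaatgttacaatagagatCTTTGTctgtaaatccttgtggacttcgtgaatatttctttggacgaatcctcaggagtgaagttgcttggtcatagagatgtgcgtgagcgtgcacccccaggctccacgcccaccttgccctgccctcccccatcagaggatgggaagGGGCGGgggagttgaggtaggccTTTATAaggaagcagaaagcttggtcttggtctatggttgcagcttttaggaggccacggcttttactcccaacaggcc
LINC02538, chr6:167679174-167679473: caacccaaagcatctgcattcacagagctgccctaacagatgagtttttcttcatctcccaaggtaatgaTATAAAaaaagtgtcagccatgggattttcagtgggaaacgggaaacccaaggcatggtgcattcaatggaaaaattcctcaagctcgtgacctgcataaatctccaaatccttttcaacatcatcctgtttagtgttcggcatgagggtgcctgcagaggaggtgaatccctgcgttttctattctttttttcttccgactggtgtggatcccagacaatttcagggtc
Both hold a TATAAA match, which 13.3% of the 90 members with a RefSeq promoter, 16.3% of 1739 LINC promoters and 11.5% of all 35116 promoters also hold. A match describes the letters and is not evidence of binding.

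Over the 90 member promoters, GGGCGG was found in 33.3%, against 18.9% of all LINC promoters and 45.0% of all promoters. TAATTA was in 12.2%, 8.57% and 4.84%. ACAAAG was in 14.4%, 22.6% and 16.1%, and ATGCAAAT in 1 member, 47 of all LINC promoters and 623 of all promoters. The median number of CG dinucleotides was 7.5 in members, 4 in all LINC promoters and 14 in all promoters.

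LINC00461, the host of miR-9-2 on chromosome 5 (chr5:88507546-88691041, minus strand, with the hairpin at chr5:88666853-88666939), had the largest fitted rise among the members. Both mature miR-9 strands are printed above. Its day 14 controls held 0 to 6 counts each, 0 to 1.63 CPM, and its knockouts ran from 7.35 to 19.3 CPM with a median of 15.8, with no overlap. The log2 difference was 4.31 ± 0.53 (adjusted p = 6.893e-07), and its call was lost only in the fit of all 24 libraries (adjusted p = 0.0515) among 23 alternatives. The feature MEF2C-AS2, which overlaps it on the other strand by 46 bp, was at 7.32 CPM in day 14 controls and 6.53 in knockouts and did not pass the test (log2 -0.17, adjusted p = 0.803). Because LINC00461 entered the rule through knockouts only, its direction was fixed by the choice.

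LINC01643, on chromosome 22, likewise entered through knockouts. It ran from 0.315 to 3.55 CPM in controls and from 9.22 to 24.9 in knockouts, without overlap, and was not seen at day 0 in any library. Its log2 difference was 2.97 ± 0.50 (adjusted p = 7.101e-05), and the call held under all 23 alternatives.

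LINC01289, LINC00200 and LINC00391 entered through both genotypes and rose without overlap. LINC01289 ran from 16.1 to 31.2 CPM in controls and from 54.7 to 96.0 in knockouts (log2 1.62 ± 0.21, adjusted p = 1.417e-06). LINC00200 ran from 6.46 to 11.6 and from 18.2 to 36.8 (log2 1.54 ± 0.27). LINC00391 ran from 13.0 to 32.8 and from 34.1 to 80.0 (log2 1.28 ± 0.25, adjusted p = 0.000542). LINC00391 lies on chromosome 13, 9537 bp from the start of SOX21, a transcription factor of neural progenitors, on the same strand. The feature SOX21 rose in knockouts as well, from 8.67 to 23.6 CPM (log2 1.41, adjusted p = 0.000861). In 30 pairs of a member and its nearest coding start both features were tested, and the member was called in 6 of them. SOX21 was the only neighbour of these 6 that also passed the test. In the fit of all 24 libraries LINC01289, LINC00200 and LINC00391 were no longer past the threshold.

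The rises of LINC00269, LINC02981 and LINC01917 were less even. LINC00269 entered the rule through knockouts only, so its direction was fixed by the choice. It ran from 0.294 to 5.49 CPM in controls and 8.05 to 16.4 in knockouts (log2 1.73 ± 0.48, adjusted p = 0.0106), and its call was lost without knockout line 2, without control line 2, with counts summed per line, with all 24 libraries and with a measure of reads on the weaker strand (given below) as a covariate. LINC02981 ran from 5.46 to 13.6 CPM in controls and from 7.66 to 46.2 in knockouts (log2 1.72 ± 0.34, adjusted p = 0.000563), so the groups overlapped, and its call was lost in the fit of all 24 libraries (adjusted p = 0.502). LINC01917, which overlaps an exon of the axon guidance receptor gene DCC by 190 bp on the other strand, differed between the knockout lines. Line 1 held 31.2, 34.3 and 36.2 CPM and line 2 held 8.75, 11.9 and 6.36, against 3.26 to 13.0 in controls. Its genotype call (log2 1.63 ± 0.43, adjusted p = 0.0074) was lost without knockout line 1, without control line 1, with counts summed per line and with all 24 libraries. The other 6 called higher, LINC00237, LINC00242, LINC01291, LINC02371, LINC01278 and LINC02614, had log2 differences from 0.62 to 1.22.

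Among members lower in knockouts, 4 were nearly lost. LINC01257, on chromosome 12 with no gene annotated opposite, ran from 8.72 to 22.9 CPM in day 14 controls, and 5 of its 6 knockout libraries had no count. The 6 knockouts held 3 counts and the controls 313, a ratio of 99.4 with a 95% counting interval of 33.7 to 485. LINC01124 ran from 8.42 to 14.2 CPM in controls and held 2 counts over the knockouts against 207, a ratio of 98.6 (27.0 to 820). LINC01378 had 18.9 ± 6.54 and 0.929 ± 1.25 CPM, and LINC01300 14.0 ± 4.70 and 0.757 ± 1.15. None of these 4 overlapped between genotypes, their log2 differences were -6.34, -6.19, -4.29 and -4.13, and each call held under all 23 alternatives. All 4 entered the rule through controls, so their direction was fixed by the choice.

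**Figure D3:**
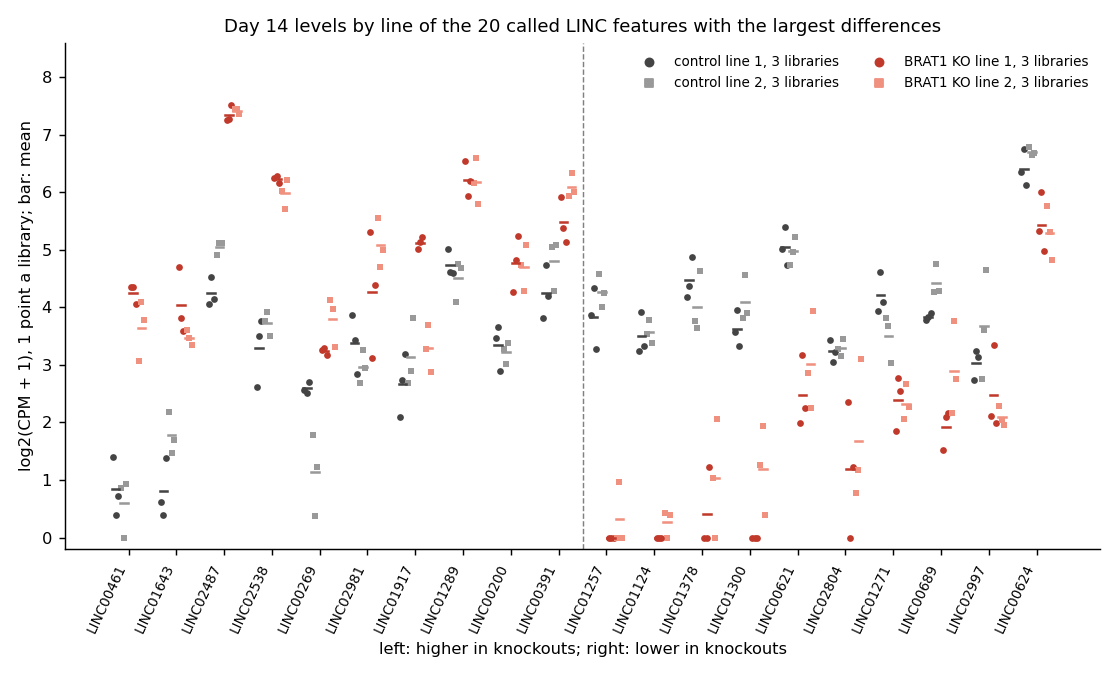
Day 14 level, as log2(CPM + 1), of the 10 members with the largest rises (left) and the 10 with the largest falls (right) among those past the threshold, with 1 point for each of 3 libraries of each line and a bar at the line's mean. LINC02487 and LINC02538 sit high in all 6 knockouts, LINC01257 and LINC01124 sit at or near 0 in all 6, and LINC01917 is high in knockout line 1 only.

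LINC01124 has a single exon at chr2:170712451-170714567 (minus strand) and starts 784 bp from SP5, a WNT-responsive transcription factor gene that runs the other way. SP5 was at 6.86 CPM in day 14 controls and 0.416 in knockouts, too low to enter the test. The promoter of LINC01124 is shown because it lies in this divergent interval. It holds 38 CG dinucleotides and 6 matches of GGGCGG on either strand, in capitals (RefSeq, GRCh38.p14, minus strand).
LINC01124, chr2:170714518-170714817: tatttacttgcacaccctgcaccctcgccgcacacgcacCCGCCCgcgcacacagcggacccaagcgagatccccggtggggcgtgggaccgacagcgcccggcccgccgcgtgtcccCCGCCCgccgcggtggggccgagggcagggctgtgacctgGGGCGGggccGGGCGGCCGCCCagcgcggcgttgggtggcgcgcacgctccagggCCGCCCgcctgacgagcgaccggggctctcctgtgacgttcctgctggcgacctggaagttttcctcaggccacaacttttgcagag

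LINC00621, LINC00689 and LINC01271 fell by a smaller factor without overlap between the genotypes. LINC00621 and LINC00689 reached 20 counts in 6 controls and in only 2 and 1 knockouts, so their direction followed from the choice. LINC00621 ran from 25.5 to 41.2 CPM in controls and from 2.98 to 14.3 in knockouts (log2 -2.30 ± 0.32, adjusted p = 6.504e-06). LINC00689, which overlaps exons of the VIP receptor gene VIPR2 by 2021 bp on the other strand, ran from 12.8 to 25.9 and from 1.86 to 12.5 (log2 -1.73 ± 0.40), while VIPR2 was at 1.01 and 0.492 CPM. LINC01271 overlaps LINC01270 by 1333 bp, met the rule at day 0 only, and ran from 7.18 to 23.6 CPM in day 14 controls and from 2.60 to 5.84 in knockouts. At day 0 it was at 25.9 ± 10.1 and 24.8 ± 10.3 CPM, with no call. Without control line 1 its day 14 call was lost, and that of LINC00689 was lost without control line 2. LINC00621 and LINC00689 also lost theirs in the fit of all 24 libraries.

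Abundant members also differed. LINC00624, at chr1:147258885-147517875 and opposite 210 bp of CHD1L, a chromatin remodeller gene, ran from 68.8 to 109 CPM in controls and from 27.3 to 63.1 in knockouts. Its log2 difference was -1.18 ± 0.20 (adjusted p = 7.99e-05), lost in the fit of all 24 libraries (adjusted p = 0.109), and CHD1L was at no more than 1.54 CPM in either genotype. LINC00649, opposite the ATP synthase subunit gene ATP5PO, went from 182 ± 39.6 to 115 ± 34.4 CPM (log2 -0.66 ± 0.19, adjusted p = 0.0134), with overlap between the groups. ATP5PO was at 2.54 CPM in controls and 3.78 in knockouts. LINC02804 (log2 -1.79, adjusted p = 0.0267) and LINC02997 (log2 -1.32, adjusted p = 0.0394) also entered mainly through controls. They overlapped between genotypes, and their calls were lost under 8 and 13 of the 23 alternatives. Leaving out single knockout libraries was enough in both cases: knockout line 1 C, line 2 A or line 2 B for LINC02804, and 5 of the 6 knockouts or control line 2 B or C for LINC02997. LINC02367, LINC00571, LINC01415, LINC01356, LINC01529 and LINC01018 made up the rest, with log2 differences from -1.16 to -0.64.

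Where exons overlapped on the other strand, the LINC name held more day 14 counts in 37 of 47 pairs. The rule asked for a count under the LINC name only, so this majority follows in part from the choice of members. In 21 pairs both features were tested and the member was called in 3, and in none of these 3 did the opposite feature pass as well. A measure of reads on the weaker strand was higher on average in knockouts at day 14, though not in every library. Over 433 pairs in which the noncoding feature held at least 2000 counts and at least 10 times those of the coding gene opposite, the coding gene's counts were 1.98% ± 0.208 of the noncoding feature's in controls and 2.81% ± 0.676 in knockouts (exact permutation p = 0.0217, two-sided), and 0.757% and 0.807% at day 0. At day 14, knockout line 1 A and B were at 2.04% and 2.086%, inside the control range of 1.621% to 2.215%. Knockout line 1 C was at 3.577%, and line 2 ran from 2.716% to 3.561%. The permutation treats the libraries as exchangeable, though they come from 4 lines. With the weaker-strand percent as a covariate 25 members passed the test at day 14, 20 of them among the 33, and its part in the differences is measured only by that fit.

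At day 0 none of 48 members tested differed between genotypes, and 0% of the 4832 features tested passed. At an unadjusted p under 0.05 there was 1 member, LINC01487, and 99 of all features, and DESeq2 also called no member. LINC01487 ran from 1.24 to 26.3 CPM in controls and from 8.21 to 191 in knockouts (log2 2.49 ± 0.77, adjusted p = 0.9997). The members with the largest day 14 differences were mostly below the level tested at day 0. LINC00461, LINC01643, LINC02487, LINC02538, LINC01257 and LINC01124 each had a median of 0.257 CPM or less in both genotypes there.

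Day 0 counts were also less even between libraries. Of 82 members with at least 20 counts over the 12 day 0 libraries, 11 had more than 50% of them in 1 library, while at day 14 this was so for 1 of 102. The highest library held a median of 27.5% of a member's counts at day 0 and 15.5% at day 14. These 11 included LINC00461, with 52 of its 54 day 0 control counts in control line 2 B, and LINC01289, with 56 of 56 in the same library.

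The genotype difference itself changed between days for 5 of 104 members, where 1.47% of 10971 features passed the interaction test. Part of this count is set by how members entered, since all 5 met the rule at day 14 only. LINC01257 and LINC02997 entered mainly through controls and LINC00461 through knockouts, which fixed the direction of their day 14 difference. LINC01289 and LINC02487 entered through both genotypes. LINC01289 (log2 8.73 ± 2.00), LINC00461 (7.75 ± 1.74) and LINC02487 (6.14 ± 1.38) rose more from day 0 to day 14 in knockouts than in controls, and LINC01257 (-7.97 ± 1.84) and LINC02997 (-6.22 ± 1.55) did the reverse, with adjusted p from 0.0205 to 0.0413. These sizes rest on a few day 0 counts. Without control line 2 B at day 0, LINC00461 and LINC01289 lost the call and 2 of the 5 passed. Without control line 2 A, which held 3 of its 4 day 0 counts, LINC02487 lost it and 3 of the 5 passed. Without knockout line 2 C at day 0, which held 23 of its 24 counts, LINC01257 lost it. With the replicate letter as a block (the replicate block) LINC00461, LINC01257 and LINC02997 lost the call and 2 of the 5 passed. LINC02997 lost it under 20 of 28 alternatives.

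**Figure D4:**
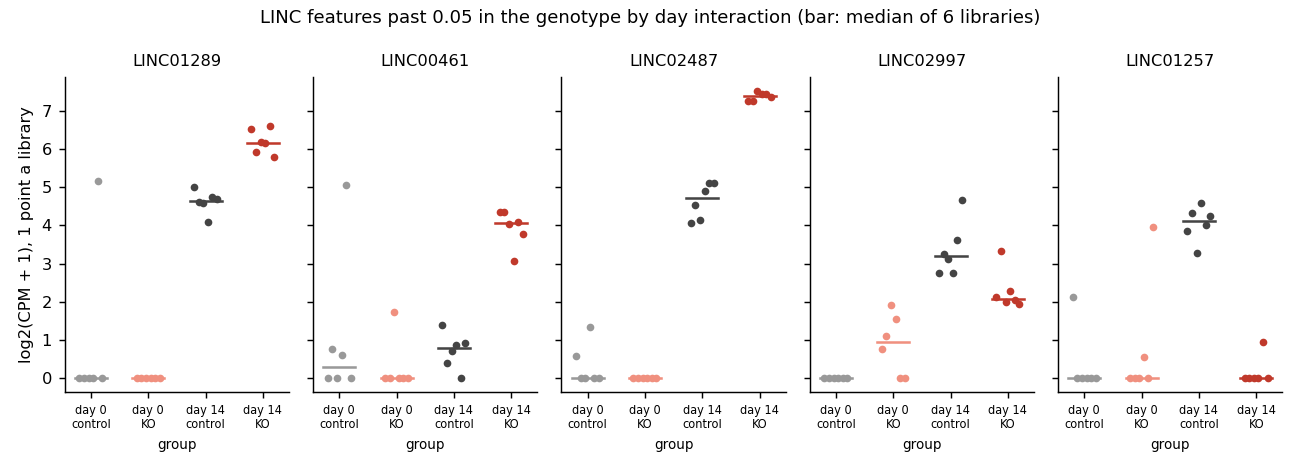
Level of the 5 members past the interaction test, as log2(CPM + 1), with 1 point a library, 6 libraries in each of 4 groups and a bar at the group's median. The day 0 groups sit at or near 0 except for single libraries of LINC01289, LINC00461 and LINC01257, while LINC02487 at day 14 is higher in all 6 knockouts than in any control.

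Lines of one genotype were compared at day 14. Between the 2 control lines no member of 99 passed the test, where 0.107% of 15000 features did; 4 members were at an unadjusted p under 0.05, among them LINC02487 (log2 0.81), and DESeq2 called none. Between the 2 knockout lines 6 members passed, against 1.23% of all features. LINC02805, on chromosome 1, was at 1.86, 2.92 and 1.07 CPM in knockout line 1 and at 21.7, 13.8 and 35.0 in line 2 (log2 3.52 ± 0.55, adjusted p = 0.000175), with controls between (5.43 to 19.7 CPM, a range that holds the 13.8). The call held under all 16 alternatives. LINC02076, the member with the most counts, was at 427, 344 and 262 CPM in line 1 and at 579, 810 and 1051 in line 2 (log2 1.17 ± 0.22, adjusted p = 0.0055). The pooled genotype difference of LINC02076 did not pass the test (log2 0.76 ± 0.31, adjusted p = 0.101). LINC01300 had no count in line 1 and 4, 9 and 1 in line 2, and its call was lost under 11 of 16 alternatives. LINC01917, LINC01709 and LINC01013 were lower in line 2, with log2 differences of -1.93, -1.28 and -1.22. The count of 6 was 1 without knockout line 1 B, 2 without knockout line 1 A or line 2 A, and 3 without knockout line 2 B or C or without control line 1 B, line 1 C or line 2 A.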

How the data were processed

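Poly(A) RNA of 24 H7 libraries was read by Click-Seq, and the authors deposited 1 file of raw counts per library. Per the submitters' processing notes the tools were bcl2fastq 2.20.0, STAR 2.7.9a, Subread 2.0.1 (featureCounts), DESeq2 1.34.0 and R 3.5.1, with GRCh38. No source used here gives the strand setting or the annotation release.

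Counts were tested as deposited with edgeR 4.0.16 (quasi-likelihood F test, TMM scaling, filterByExpr, robust) in R 4.3.3, with Benjamini-Hochberg adjustment over all features of a fit and a threshold of 0.05. Genotypes were compared within each day, and days and the interaction in 1 fit of all 24 libraries. All adjusted p-values come from these fits, and errors of log2 values are SE, other errors SD. Alternatives were RLE scaling, no low-count filter, DESeq2 1.42.0, replicate block, libraries or lines left out, counts summed per line, and the weaker-strand percent as a covariate. The script for these fits was tested on simulated data.

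GENCODE 29 coordinates were matched by name for 57015 of 61248 features. Promoters and microRNAs are from RefSeq (GRCh38.p14), with promoters for 90 of the 104 members. Counting intervals are 95% and cover counting error only. Named by rule are up to 10 rises and 10 falls, the largest among members called at day 14 with a mean of at least 2 CPM and 1 direction over each of the 4 knockout and control line pairs; 5 and 5 between days by a like rule; up to 3 and 3 in the interaction; the 2 largest differences between lines; the 6 most abundant members of each day; and LINC00461 and LINC00632, for a known content. LINC02157, LINC02603, LINC01013, LINC01018, LINC02951 and members given as the remainder of a count were named after their values were seen. The members and lists were chosen with earlier results of these data known.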

Additional observations from a re-analysis of the deposited data

Results flagged for a closer look

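Each group of 6 libraries with a mean of at least 2 CPM was examined for a highest or lowest library set far apart from the other 5 (Dixon's criterion at 95%) in the 37 named members. Of 106 groups, 11 had such a library. The criterion's rate of about 1 in 20 assumes normally distributed values, and some of these groups hold mostly zeros. Whether 11 is more than chance gives was therefore not tested. At day 0 the high libraries were those of LINC00461 at 32.33 CPM and LINC01289 at 34.82 in control line 2 B, LINC02981 at 47.1 in control line 1 A, LINC01257 at 14.52 in knockout line 2 C and LINC01487 at 190.9 in knockout line 1 A. LINC00987 had a low one, 319.3 CPM in knockout line 1 A. At day 14 the high libraries were those of LINC01643 at 24.92 CPM and LINC01618 at 13.76 in knockout line 1 A, LINC00689 at 12.55 in knockout line 2 B, LINC02997 at 24.23 in control line 2 C and at 9.12 in knockout line 1 B.

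The genotype difference changed between the days, by the interaction test, for LINC00461 (7.749 on the log2 scale), LINC01289 (8.726), LINC02487 (6.135), LINC01257 (-7.971) and LINC02997 (-6.222). The first 2 and LINC01257 rest on the single day 0 libraries named above. The cause of these single-library values was not tested.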

How the results depend on the processing

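The count of members called at day 14 was 8 in place of 33 with all 24 libraries in 1 fit, and 23 to 33 when 1 library or line was left out. At day 0 it was 0, and 1 with all 24 libraries. The interaction count of 5 was 2 with the replicate block, 8 with DESeq2 and 2 to 7 with 1 library left out. The count of 6 between knockout lines was 3 with the replicate block and 1 to 6 with 1 library left out. Between days, leaving out 1 library gave 58 to 65 members in controls and 57 to 63 in knockouts, and between control lines 0. With the replicate block 31 members were called at day 14. Correlations of same-letter deviations ran from -0.137 to 0.0689 at day 14 (different letters -0.0746 to 0.114) and from 0.0531 to 0.219 at day 0 (different letters -0.14 to 0.00827). Letters thus went together at day 0, where every same-letter value lay above every different-letter one. The main fits do not model this. The replicate block does so as an additive letter effect, which the interaction fit holds equal on both days. Its counts are given above only for the day 14 genotype, interaction and knockout line comparisons. Of the 20 named genotype differences at day 14, 7 kept their call under all 23 alternatives, 8 lost it under 1 and 5 under more. Of the 7, 5 (LINC01124, LINC01257, LINC01300, LINC01378 and LINC01643) entered the rule through 1 genotype, which fixed their direction, and LINC02487 and LINC02538 entered through both. No named direction reversed. The rule admitted 161 features at a minimum of 10 counts, 61 at 40 and 48 when all 12 libraries were required. Day 0 libraries are the shallower, so differences among members near 0 there were not detectable at this depth.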
